A study of Bos taurus with 4 samples.

Results

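The piRNAs described here come from 5 genomic clusters of the bovine oocyte whose share of reads was lower in RNA recovered with TDRKH than in input RNA. Members are all listed sequences that carry the name of the cluster on chromosome 24 (from 17793334 to 17800783), chromosome 2 (59556283 to 59565020), chromosome 19 (63960001 to 63978019), chromosome 16 (49598384 to 49603994) or chromosome 4 (97000 to 103993). The positions are those of the deposited names, with a genome build not given in the sources used here. Genes at these positions were therefore not looked up. They comprised 66573 of 2468643 distinct sequences, and of 2219158 distinct piRNA cluster sequences. The clusters were selected on their fall from input to IP, so that fall, and every change of a member from input to IP, is given as a description and not as a test. The question is which sequences carry the fall.

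Sequencing covered small RNAs of bovine GV stage oocytes, which hold an intact germinal vesicle and are arrested before meiotic maturation. One group held 2 libraries of input RNA, for which no antibody was used, and the other held 2 libraries of RNA co-immunoprecipitated with a Proteintech antibody against Tdrkh. No IP with a control antibody was analysed here, so RNA bound to TDRKH cannot be told apart from other RNA that stays with the beads. Whether the 2 replicates of a group were separate oocyte pools is not stated in the labels, so the spread between them, which p-values measure, may be technical.

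PIWI proteins carry piRNAs, small RNAs cut from long single-stranded cluster transcripts, and use them to recognise and cut complementary RNA. The first base of a piRNA is most often U, which the reads show as T. A piRNA whose target is cut by a PIWI protein can give rise to a partner piRNA from the target strand, and the first 10 bases of both then pair. TDRKH, a tudor and KH domain protein of the mitochondrial surface, binds PIWI proteins, and in mouse it is needed for trimming the 3′ ends of piRNA precursors. PIWIL3, named in the title of the study, is a PIWI protein that mice lack.

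Most reads of the 5 clusters came from variants of a pair of piRNAs, each with its own 5′ end. Family A starts with tcgaattgtggtgt and holds the main sequences of the clusters on chromosomes 24 and 16, and family B starts with tcctatagggtgag and holds those of the clusters on chromosomes 2, 19 and 4. A sequence was put in a family when its first 14 bases, or 14 bases starting up to 3 bases further in, differed from that start by at most 1 base. The forms below are shown because their values carry the fall or mark its limits. Capitals mark bases that differ from, or lie beyond, the reference form. That form is the family's most abundant form in the inputs and is shown first. The deposited names carry a note of a mismatch for every member form below except family A with 1 base added.
family A reference form: tcgaattgtggtgttggagaagactt
family A with 1 base added, named for chromosome 24: tcgaattgtggtgttggagaagacttG
family A variant 1, named for chromosome 24: tAgaattgtggtgttggagaagactt
family A variant 2, named for chromosome 24: tcgaattgtggtgttggGgaagactt
family A variant 3, named for chromosome 24: tcgaattgtggtgttggagaagGctt
family B reference form, named for chromosomes 2 and 19: tcctatagggtgagggtatagtgggt
family B second form, named for chromosome 2: tcctatagggtgagggtGCagtgggt
family B chromosome 4 form: tcctatagggtgagggtGCagtggAA
family B chromosome 23 form, not a member: tcctatagggtgagCAtGtagtgggt

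The listed reads amounted to 1079364 and 1354003 in the inputs and to 11138905 and 11060320 in the IPs, all of 18 to 36 nt. At these depths a floor of 3 reads was 2.78 and 2.22 reads per 1000000 listed reads (RPM) in the inputs and 0.269 and 0.271 RPM in the IPs, and floors and counts cover counting error only, since PCR copies were counted. Reads of piRNA clusters made up 88.8% and 87.8% of the inputs and 96.9% and 96.8% of the IPs. All 4 microRNAs of the cumulus and granulosa cell list had reads, and their sum was 236 and 283 RPM in the inputs against 1.26 and 2.71 RPM in the IPs. Of 3 leukocyte, 2 epithelial and 1 liver microRNA, 2, 2 and 1 had reads, with sums of 55.1 and 49.5, 58.4 and 59.1, and 434.5 and 334.6 RPM in the inputs and of at most 2.35 RPM in any IP. The part of other cells in the results below was not tested, and in such pooled RNA fewer cells of a type and less RNA per cell cannot be told apart.

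The cluster on chromosome 24 had the largest fall of the 5. With each read divided equally among the loci of its names, it held 9699 and 7336 RPM in the inputs and 3557 and 3484 RPM in the IPs, a 2.42-fold lower mean. The cluster on chromosome 2 went from 5268 and 5680 RPM to 3569 and 3303 RPM. In both clusters the lower input was well above the higher IP.

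The other 3 clusters fell less. That on chromosome 19 held 2415.5 and 2539.9 RPM in the inputs and 1711.5 and 1556.5 RPM in the IPs. That on chromosome 16 went from 5225 and 4883.5 RPM to 4019.5 and 3384 RPM, and that on chromosome 4 from 2705 and 3092 RPM to 2627 and 2290 RPM. The groups did not overlap in any of them, though on chromosome 4 the lower input and the higher IP lay close together.

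The fitted log2 changes were -1.27 ± 0.11 (SE) on chromosome 24, -0.67 ± 0.06 on chromosome 2, -0.60 ± 0.06 on chromosome 19, -0.45 ± 0.08 on chromosome 16 and -0.24 ± 0.08 on chromosome 4, from edgeR's quasi-likelihood fit over 5211 cluster loci and other names. All 5 clusters were lower at an adjusted p under 0.05 and none was higher, where 60.3% of all features were lower and 15.0% higher, and nothing is read from this count because the clusters were selected on it. Of the 935 piRNA cluster loci in that fit, 34 were lower, and the median log2 change over these loci was 0.36. Over all features the median was -2.63, because most other classes of small RNA were scarcer in the IPs. Under TMM factors it was -0.72, under DESeq2's size factors -0.33 and with microRNA reads as library size 4.33, and under these 3 scalings all 5 clusters turned higher in the IP. The fall is therefore one of share among the listed reads. On chromosomes 16 and 4 the call was lost without input 1 (log2 change -0.40 and -0.33) and without input 2 (-0.50 and -0.14), and on chromosome 4 also without TDRKH IP 2 (-0.14).

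Summed over the 5 clusters, the fall lay in the 2 families. Family A reads of the 5 clusters went from 14385 and 11662 RPM in the inputs to 6978 and 6253 RPM in the IPs, and family B reads from 8882 and 9730 RPM to 5915 and 5063 RPM. All other member sequences together were at 2045 and 2140 RPM in the inputs and at 2591 and 2703 RPM in the IPs, so both IPs exceeded both inputs. Their log2 ratio of 0.34 was near the median log2 change of 0.36 over the 935 piRNA cluster loci. These others were 62792 of the 66573 sequences but 8.08% and 9.09% of the member reads in the 2 inputs.

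The same split held within 4 of the 5 clusters, the exception being that on chromosome 24. On chromosome 2, family B fell from 4635 and 4998 RPM to 2664 and 2330 RPM, while the cluster's other sequences (family A apart) went from 632 and 681 RPM to 903 and 971.5 RPM. On chromosome 19, family B fell from 1820 and 1948 RPM to 959 and 786 RPM, and the others went from 596 and 592 RPM to 753 and 771 RPM. On chromosomes 16 and 4 the others were likewise higher in both IPs, at 253 and 276 against 355 and 343 RPM and at 278 and 308.5 against 335 and 344 RPM. On chromosome 24 both IPs were instead below both inputs, with the others at 287 and 283 RPM in the inputs and at 245 and 274 RPM in the IPs, a margin far smaller than that of family A, which fell from 9412 and 7053.5 RPM to 3312 and 3210 RPM.

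Within both families the fall was greatest at the full length of 26 nt, and forms that share the 5′ end but stop earlier fell less or were higher. The 26-nt reference form of family A was at 5398.5 and 5209 RPM in the inputs and at 2934 and 2396 RPM in the IPs, with a log2 change of -0.99 ± 0.20. The same sequence ending 1 base earlier, at 25 nt, was at 2829 and 2474 RPM against 2170 and 1710 RPM (-0.45 ± 0.21). The 5′ parts of 18 to 24 nt of the same sequence were together at 1534 and 1529 RPM in the inputs and at 2641 and 2297 RPM in the IPs. All 7 of these shorter lengths had a higher mean in the IPs, with log2 changes from 0.42 at 22 nt to 0.98 at 20 nt. Such rises were common outside the members. The 7954 tested sequences of other clusters, with 1-base variants (defined below) left out, had a median log2 change of 0.89. The short forms lay below that median at 18, 21, 22 and 24 nt and slightly above it at 19, 20 and 23 nt. A retention particular to these short forms was not tested. The reference form with 1 base added was at 772 and 1015.5 RPM in the inputs and at 1147 and 947 RPM in the IPs, so the groups overlapped.

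Family B showed the same order of lengths without the rise of the short forms. Its 26-nt reference form, the sequence with the largest fall on both chromosome 2 and chromosome 19, was at 2525 and 2596 RPM in the inputs and at 1013 and 836 RPM in the IPs, a 2.77-fold lower mean with a log2 change of -1.47 ± 0.21. At 25 nt the sequence was at 288 and 355 RPM against 233 and 172 RPM (-0.67 ± 0.24). Its 5′ parts of 18 to 24 nt were together at 580 and 668 RPM in the inputs and at 610 and 507 RPM in the IPs, and the groups overlapped. The second form was at 1591 and 1453 RPM against 629 and 574 RPM at 26 nt (-1.34 ± 0.21), at 436 and 639 against 372 and 333 RPM at 25 nt (-0.61 ± 0.23), and at 1538 and 1946 against 1506 and 1251 RPM over 18 to 24 nt. Summed over 18 to 24 nt, both IPs of the second form thus lay below both inputs too. Its log2 changes were from -0.39 to -0.30 at each length from 19 to 24 nt, but the groups overlapped at 19, 20 and 21 nt. At 18 nt its log2 change was 0.26, also with overlapping groups. The reference form with 1 base added was also lower, at 209 and 295 RPM in the inputs and at 201 and 150 RPM in the IPs. In both forms of family B the 26-nt length therefore had the lowest ratio of IP to input, and each shorter length a higher one. The chromosome 23 form, which is no member, was at 2363 and 2227.5 RPM at 26 nt and fell to 1055 and 810 RPM (-1.30 ± 0.21), while its 23-nt form was at 550 and 596 RPM in the inputs and at 588 and 532 RPM in the IPs.

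Over all members, reads of 26 nt fell from 13818 and 12239 RPM to 5682 and 5126.5 RPM, and reads of 25 nt from 5185 and 4483 RPM to 3219 and 2821 RPM. Reads of 24 nt were at 1195 and 1165 RPM against 1230.5 and 1137 RPM, and reads of 28 nt went from 216 and 278 RPM to 399 and 393 RPM. The mean of all members fell by 9671 RPM, and that of members of 26 nt fell by 7624 RPM. Reads of 26 nt that end in T fell from 11762 and 10130 RPM to 3986 and 3561 RPM, whereas those that end in A were at 1813 and 1893 RPM in the inputs and at 1537 and 1401 RPM in the IPs. Reads ending in T at other lengths fell as well, from 4898 and 4058 RPM to 2883 and 2626 RPM. The log2 ratio of the means was -1.54 for 26 nt ending in T, -0.70 for other lengths ending in T and -0.34 for 26 nt ending in A, with both IPs below both inputs in each. In the other piRNA clusters, reads of 26 nt ending in T went from 89607 and 83474 RPM to 70828 and 70826 RPM and those ending in A from 74217 and 75062 RPM to 87279 and 85628 RPM. The other clusters include family B sequences that are not members, such as the chromosome 23 form, so this comparison is not separate from the families.

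On chromosome 24 the fall lay in sequences that differ by 1 base from a far more abundant one. A 1-base variant differs by 1 base from another listed sequence of the same length that had at least 5 times its mean RPM. These means are over all 4 libraries, IPs included, so the class is not independent of the change described. On chromosome 24 such variants were at 8637 and 5974 RPM in the inputs and at 1755 and 1905 RPM in the IPs, 89.1% and 81.4% of the cluster's reads in the inputs. The cluster's other reads were at 1062 and 1362 RPM in the inputs and at 1801 and 1579 RPM in the IPs, higher in both IPs. With the variants left out, a step chosen after seeing the data, the log2 change of the cluster turned to 0.48.

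The 3 largest falls on chromosome 24 were all variants of the family A reference form. Variant 1 was at 333 and 235 RPM in the inputs and at 45.5 and 46.5 RPM in the IPs, a 6.17-fold lower mean (log2 change -2.62 ± 0.26). Variant 2 was at 233.5 and 200.1 RPM against 28.4 and 35.4 RPM (-2.76 ± 0.27), and variant 3 at 238 and 164 RPM against 27.8 and 34.7 RPM (-2.68 ± 0.27). All 3 fell by more than the reference form from which they differ. The largest rise of the cluster was that of the reference form with an A added, at 301 and 402.5 RPM in the inputs and 464.5 and 390.5 RPM in the IPs, and with a G added it was at 405 and 527 RPM against 594 and 460 RPM, so both sets of values overlapped.

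The family A reference form itself does not carry the name of the cluster on chromosome 24. The files name it for a larger cluster on chromosome 17 and for that on chromosome 16, in each case with a note of a mismatch, while its variants are named for chromosome 24 with notes whose corrected base gives the reference form. Of the 443 listed sequences that the notes of chromosome 24 imply, 184 carry its name without a note, 2 carry it with a note and 257 do not carry it. Those 257 were at 11155 and 10614 RPM in the inputs and at 9687 and 8218 RPM in the IPs. With the implied sequences added to all clusters, a further step chosen after seeing the data, the log2 change was -1.0004 on chromosome 24, -0.61 on chromosome 2, -0.53 on chromosome 19, -0.32 on chromosome 16 and -0.25 on chromosome 4. When only names without a mismatch note were counted, the log2 change was 0.51 on chromosome 19, 0.21 on chromosome 24, 0.15 on chromosome 4, 0.11 on chromosome 2 and -0.14 on chromosome 16. Of these, that on chromosome 19 passed an adjusted p of 0.05 and the other 4 did not, and on chromosomes 2 and 4 the groups overlapped. Summed over all members, reads named with a mismatch note made up 88.6% and 86.3% of the inputs' member reads. In the IPs they made up 76.4% and 75.8%. Member reads named without a note went from 2875 and 3227 RPM in the inputs to 3653 and 3393 RPM in the IPs.

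The excess of 1-base variants in the inputs was not particular to these clusters. All 78 possible 1-base variants of the family A reference form were listed, and their reads summed to 97.5% and 71.2% of the reads of the reference form in the inputs and to 31.6% and 42.8% in the IPs. Of the 78 possible variants of the family B reference form 76 were listed, at 107% and 83.5% in the inputs and at 19.3% and 25.2% in the IPs. For the 100 most abundant sequences of the other clusters the median of this ratio was 75.1% and 46.8% in the inputs and 15.5% and 17.2% in the IPs, and in 97 of the 100 both inputs exceeded both IPs. Among all reads of the other clusters the variants made up 34.5% and 26.3% of the inputs and 11.7% and 12.1% of the IPs. The inputs also had fewer listed reads than the IPs and differed from each other in this share, and the origin of the variants was not tested.

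On chromosomes 16, 19 and 2, sequences that are no 1-base variants carried most of the fall. On chromosome 16 the reads that are no 1-base variants went from 4999 and 4740 RPM to 3927 and 3291 RPM, and on chromosome 19 from 2077 and 2269 RPM to 1533 and 1377 RPM. On chromosome 2 they went from 4301.5 and 4804 RPM to 3189 and 2922 RPM, with variants adding a fall from 966 and 876 RPM to 380 and 381 RPM. On chromosome 4 the groups overlapped without the variants, at 2120 and 2532 RPM in the inputs and 2270 and 1947 RPM in the IPs, and the variants went from 585 and 559.5 RPM to 357 and 343 RPM.

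The remaining sequences with the largest falls were mostly 1-base variants. The next fall on chromosome 2 was that of a 25-nt sequence equal to the second form without its first base, which the 14-base rule does not put in family B and which is counted among the other member sequences, at 41.7 and 51.7 RPM in the inputs and 23.3 and 27.4 RPM in the IPs. The next falls on chromosome 19 were those of variants of the family B reference form, at 41.7 and 34.0 RPM against 4.04 and 2.71 RPM and at 22.2 and 14.03 RPM against 1.35 and 0.904 RPM. Those on chromosome 16 were of a 25-nt and a 26-nt variant of family A, at 154 and 80.5 RPM against 18.6 and 18.8 RPM and at 63.0 and 34.0 RPM against 16.4 and 20.2 RPM. All 4 of these variants had a larger ratio of input to IP than the reference form of their family. The chromosome 19 variant at 22.2 and 14.03 RPM carries that cluster's name without a mismatch note, as does the 26-nt variant on chromosome 16. The reference forms carry the names of these clusters with a note.

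On chromosome 4 the changes were smaller in the full-length forms. The chromosome 4 form was at 218 and 312 RPM in the inputs and at 207 and 180 RPM in the IPs (log2 change -0.46 ± 0.24). The same form with a T before it was at 88.0 and 96.0 RPM against 73.3 and 69.5 RPM, and a 1-base variant of the family B reference form at 27.8 and 29.5 RPM against 3.23 and 3.62 RPM. The variant had the largest ratio of the 3 although it held the fewest reads. The largest rise was that of a 25-nt form of family B, at 76.0 and 99.0 RPM in the inputs and at 117 and 96.2 RPM in the IPs, with overlapping groups.

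The largest rises on chromosomes 2 and 19 belonged to neither family and are shown as the members with the largest gain.
chromosome 2, largest rise: ttggacatgacttagaaactgaaca
chromosome 19, largest rise: tccatctggagcgcggaacccacca
The first was at 52.8 and 69.4 RPM in the inputs and at 174 and 220 RPM in the IPs (log2 change 1.68 ± 0.27). The second was at 16.7 and 30.3 RPM against 55.7 and 63.3 RPM (1.31 ± 0.33). On chromosome 16 the largest rise was that of the 24-nt part of the family A reference form, at 321 and 282 RPM against 503 and 441 RPM (0.65 ± 0.22).

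Counted by sequence, the shares of members called lower and higher were near those of all sequences, and their balance depended on the scaling. Of the 66573 members, 722 had at least 10 RPM in 2 libraries and entered the sequence fit, and these held 84.0% of the member reads in the inputs. At an adjusted p under 0.05 by edgeR's quasi-likelihood test 163 of them (22.6%) were lower and 269 (37.3%) higher in the IPs, where over all 11786 sequences 19.9% were lower and 41.9% higher. This contrast chose the clusters, and nothing is read from the counts. Under TMM factors 207 were lower and 39 higher, and under DESeq2's size factors 195 were lower and 14 higher. Of the 163 lower members 155 were 1-base variants, as were 1642 of the 1707 lower sequences of the other clusters. Among tested variants 62.5% of the members and 69.9% of the other cluster sequences were lower. A sequence could enter the fit through the inputs alone or through the IPs alone. Being tested and being called are therefore linked, and nothing is read from the shares called among variants or among other sequences. Of the 474 tested members that are not variants 8 were lower and 237 (50.0%) higher. Of the other cluster sequences that are not variants 65 of 7954 were lower and 4234 (53.2%) higher. Without TDRKH IP 1 the number of higher members was 108, and without TDRKH IP 2 it was 67. The median log2 change was 0.52 over the tested members and 0.70 over all tested sequences. By cluster, 112 of 175 tested sequences were lower and 40 higher on chromosome 24, and all 112 were 1-base variants. Lower and higher were 20 and 96 of 234 on chromosome 2 and 30 and 90 of 216 on chromosome 19. They were 8 and 91 of 173 on chromosome 16 and 6 and 13 of 78 on chromosome 4.

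A few 5′ ends per cluster held most of the loss. Sequences were grouped by their first 18 bases, and in each cluster the 10 groups with the most reads were chosen in one input and read in the other. These 10 groups per cluster, of 1686 to 11027 groups, carried between 72.0% and 84.4% of the fall over the 4 pairings of an input with an IP, with a mean of 78.3%, and 81.1% of the reads. Their share of the fall was thus close to their share of the reads. On chromosome 24 they carried 2145.5 to 3615 RPM of a fall of 3780 to 6215 RPM. On chromosome 19 they fell by more than the whole cluster, by 766 to 1121 RPM against 704 to 983 RPM.

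The 5 clusters share sequences with each other and with loci outside them. Sequences named for both chromosome 2 and chromosome 19 held 72.3% of the input reads of the cluster on chromosome 19 and 32.7% of those of the cluster on chromosome 2, so the falls of these clusters are not independent. Reads named for chromosome 19 alone were at 180 and 165 RPM in the inputs and at 158 and 159.5 RPM in the IPs. Reads named for chromosome 16 alone were at 32.4 and 29.5 RPM against 22.7 and 21.9 RPM, since its main sequences are shared with the larger cluster on chromosome 17.

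Both families also occur under names outside the 5 clusters, where family A moved in both directions and family B was lower in the IPs at all 5 of the loci compared. The loci compared were those outside the 5 clusters among the 8 loci with the most input reads of each family. On chromosome 17 from 62734026 to 62887012, allotted family A reads went from 5836 and 5286.5 RPM to 4147 and 3548 RPM. On chromosome 3 from 29109111 to 29179021 they went from 622 and 600 RPM to 1013 and 997 RPM, and on chromosome 21 from 62006013 to 62016007 from 398 and 378 RPM to 662 and 585 RPM. Family A reads were also higher on chromosome 10 from 80948045 to 80962026, at 249 and 245 RPM against 442 and 391 RPM. The same held on chromosome 17 from 5210003 to 5218933, at 188 and 171 RPM against 269 and 244 RPM. Allotted family A reads fell from 104.5 and 71.1 RPM to 12.8 and 13.1 RPM on chromosome 10 from 2216000 to 2228024. Family B reads on chromosome X from 73404001 to 73411298 went from 5941 and 5240 RPM to 1612 and 1339 RPM, a 3.79-fold lower mean. On chromosome 23 from 13851174 to 14138004 family B reads went from 6977 and 7051 RPM to 5208.5 and 4313 RPM, and on chromosome 14 from 4891038 to 5053723 from 2584 and 2694 RPM to 1511 and 1314 RPM. On chromosome 16 from 61871008 to 61877017 they went from 294 and 354 RPM to 213 and 190 RPM, and on chromosome X from 39277528 to 39283967 from 334 and 388 RPM to 315.5 and 278 RPM. The groups did not overlap at any of these loci, but the share of all cluster loci without overlap was not counted, so nothing is read from this. Over all cluster names, family A was at 22675 and 19025 RPM in the inputs and 13995 and 12524 RPM in the IPs, and family B at 25331 and 25820 against 14985 and 12685 RPM.

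The reference forms are among the most abundant piRNAs of the oocyte, and the most abundant cluster sequences in general had a lower share in the IPs. Ranked by the mean of the 4 libraries with 1-base variants left out, the family A reference form was number 2, the family B reference form number 14 and the second form number 46. Of the first 20 cluster sequences 18 had a lower mean in the IPs (median log2 change -0.41), and 3 of the 20 were members. From rank 21 to 100 the median was 0.05, from 101 to 500 it was 0.46 and from 501 to 2000 it was 0.76. Among the first 100, the family B reference form had the lowest ratio of IP to input, its second form the next and the family A reference form was number 7. The part of abundance in the fall was not tested.

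The composition of member reads differed from that of other cluster reads in all 4 libraries. It was compared in each library, with an exact permutation test of the 4 pairs whose smallest two-sided p is 0.125, so no feature could pass 0.05, and all 8 features gave that value, also after adjustment over them. Reads starting with T made up 95.0% ± 0.221 of member reads in the inputs and 95.2% ± 0.462 in the IPs (SD, n = 2), against 87.7% ± 0.605 and 87.9% ± 0.560 of other cluster reads. An A at base 10, the mark of partner piRNAs, was carried by 4.49% ± 0.412 of member reads in the inputs and 10.5% ± 1.21 in the IPs, against 41.6% ± 0.278 and 41.9% ± 0.516 elsewhere. The starts of both families have G at base 10. Family A held 53.2% and family B 38.2% of member reads in the inputs, and 44.8% and 37.2% in the IPs. The low share of A among members, and its rise in the IPs, therefore cannot be told apart from the weight of the families. Neither is read as a lack or gain of partner piRNAs. Reads of 26 nt made up 53.3% ± 1.82 and 36.6% ± 0.0893 of member reads, against 25.1% ± 0.410 and 22.5% ± 0.414. Reads ending in T made up 63.1% ± 3.91 and 44.3% ± 0.157 of member reads, against 37.8% ± 0.528 and 34.6% ± 0.483.

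Other features were scarcer among member reads. Reads of 18 to 22 nt made up 6.63% ± 0.492 in the inputs and 11.2% ± 0.544 in the IPs, against 10.7% ± 0.154 and 13.0% ± 0.769 elsewhere. Reads of 28 to 36 nt made up 1.24% ± 0.266 and 3.16% ± 0.204, against 10.4% ± 0.580 and 10.98% ± 0.312. Reads with another first base than T and an A at base 10 made up 0.336% ± 0.00230 and 0.613% ± 0.0470, against 4.77% ± 0.311 and 4.75% ± 0.136. The 1-base variants, at 37.9% ± 6.53 and 19.3% ± 2.01 against 30.4% ± 5.81 and 11.9% ± 0.301, were more frequent among members. With each distinct sequence counted once, A at base 10 and 18 to 22 nt were more frequent among members than elsewhere and 26 nt less frequent, while the other 5 features kept their direction.

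Reads whose first 10 bases are the reverse complement of the first 10 bases of a family were listed for both families, and their share was higher in the IPs. They were found by sequence alone, since no genome was read, so their strand and origin are not known. The most abundant of them are shown with the 10 bases that pair with the family in capitals; neither is a member.
partner of family A: CACAATTCGAaagcatcaattctt
partner of family B: CCCTATAGGAatgcaactttatctaat
Reads whose first 10 bases are the reverse complement of the start of the family A reference form were at 1.85 and 4.43 RPM in the inputs and at 10.8 and 10.5 RPM in the IPs, over 25 sequences, none of them a member. With an overlap of 9 bases such reads were at 0 and 0.739 RPM against 1.17 and 0.814 RPM, and with 11 bases none was listed. The inputs lie at or near the floor of 3 reads, so the level of these partners in the inputs is poorly known.

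The partners of family B were more abundant. Reads that pair with its reference form over 10 bases were at 51.0 and 80.5 RPM in the inputs and at 125 and 133 RPM in the IPs, over 213 sequences of which 37 are members. At 9 bases they were at 7.41 and 9.60 RPM against 11.2 and 11.03 RPM, at 8 bases at 5.56 and 7.39 against 2.33 and 3.16 RPM, and at 11 bases at 0 in both inputs and at 1.53 and 1.54 RPM in the IPs. In every library the overlap of 10 bases held the most reads of the overlaps from 8 to 16 bases, in both families. The partner shown for family B was at 9.27 and 17.7 RPM in the inputs and at 24.7 and 23.3 RPM in the IPs (log2 change 0.80 ± 0.38, adjusted p = 0.0683 by edgeR's quasi-likelihood test over all tested sequences). It is named for a cluster on chromosome 25 and, with a mismatch note, for another on chromosome 10. The summed family B partners had a log2 ratio of 0.97, near the median log2 change of 0.89 over the 7954 tested sequences of the other clusters that are not 1-base variants, of which 53.2% were higher.

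Within the clusters, the share of member reads with a 10-base partner of the same cluster differed between clusters. In the inputs it was 85.2% and 84.2% on chromosome 2 and 84.6% and 88.8% on chromosome 19, and on chromosome 2 it was 5.03% and 9.30% for an overlap of 9 bases. For 8 bases on chromosome 2 it was 2.81% in input 1 but 83.7% in input 2, and on chromosome 19 the 9-base share was 6.40% in input 1 but 78.1% in input 2. On chromosomes 24, 16 and 4 the 10-base share was between 0.511% and 4.15% in any library, and on chromosome 4 the 9-base share of 3.64% to 6.09% was higher in each library. A read counts as soon as 1 partner read is listed, and in the deeper IPs the 9-base share on chromosome 2 was 89.5% and 88.0%, as high as the 10-base share of 89.5% and 88.5%. On chromosomes 2 and 19 the 10-base overlap therefore stood apart from both the 8-base and the 9-base overlap in input 1 and not in the other 3 libraries.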

How the data were processed

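The deposited files hold raw read counts per sequence and library, made by the authors, with names from the unitas annotation tool per the file names; it is a tool whose settings, like an aligner and a genome build, were not given in the sources used here. Each file lists annotated sequences only, so totals are of listed reads. Per the labels' protocols, RNA was extracted with TRIZOL and made into libraries by the NEXTflex kit for small RNA. Libraries were grouped by their labels.

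Trailing mismatch notes were removed from names, 1159 cluster names were merged into 956 loci by overlap, and a sequence was divided equally among its loci. Reads per 1000000 (RPM) use all listed reads of a library. The IPs were compared with the inputs by edgeR 4.0.16 (R 4.3.3, quasi-likelihood, filterByExpr for loci, at least 10 RPM in 2 libraries for sequences) with listed reads as library size and Benjamini-Hochberg adjustment at 0.05. Standard errors are the log2 change over the root of edgeR's F. Allotted counts were rounded. Python 3.11.15, with numpy 2.4.6, pandas 2.3.3 and scipy 1.17.1, served for the rest. Named sequences were, per cluster, the 3 with the largest fall and the 1 with the largest rise in allotted RPM among those tested, 1 per shared first 18 bases; reference forms, their lengths and their partners were added with values known. An unread base (N) occurred in 293 member sequences and was left out of the variants counted for the reference forms.

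The members and lists were chosen with earlier results of these data known. The alternatives included DESeq2 1.42.0 with its size factors, TMM factors, microRNA or piRNA cluster reads as library size, other filters, read lengths, names, loci and groupings, IPs thinned to the smaller input, the replicate number as a block, and leaving out each library in turn, with the spread of a group of 1 taken from the other group. The families, the 1-base variants, the last base and the partners were defined after the data were seen. Each fit was tested on simulated data with features changed 1.5-fold, 2-fold and 4-fold. The fit of loci recovered 5 of 63, 21 of 72 and 42 of 65 of them. The fit of sequences recovered 6 of 69, 23 of 58 and 70 of 73. Each fit made 5 false calls. In the simulated data, changes of 2-fold or less were thus mostly missed. The simulation used a set spread between replicates, not one taken from these data, and changed only a small part of the features. Its recovery therefore does not carry over to the fits above, where most features were called.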

Additional observations from a re-analysis of the deposited data

How the results depend on the processing

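In these lists of log2 changes the clusters stand in the order chromosome 24, 2, 19, 16 and 4. All 5 turned positive under TMM factors (0.65, 1.26, 1.33, 1.48 and 1.69), under DESeq2's size factors (1.06, 1.67, 1.74, 1.89 and 2.11), with microRNA reads as library size (3.48, 4.09, 4.17, 4.32 and 4.53) and with reads of 28 to 36 nt (0.92, 0.26, 0.31, 0.23 and 0.35, the first alone past the threshold). With names without a mismatch note they were 0.21, 0.11, 0.51, -0.14 and 0.15, with chromosome 19 alone past the threshold. With reads of 18 to 22 nt chromosomes 19 and 16 turned positive (0.34 and 0.67), and chromosomes 2 and 4 lost their call (-0.0457 and -0.18). Calls were also lost with no filter, where 29304 features were tested, on chromosomes 24, 16 and 4 (-1.27, -0.45 and -0.24), with reads of 23 to 27 nt on chromosome 4 (-0.25), with single-locus sequences on chromosomes 19 and 16 (-0.12 and -0.47) and, leaving out 1-base variants, on chromosome 4 (-0.14), where chromosome 24 turned to 0.48. Leaving out 1 library gave ranges of -1.46 to -1.06, -0.73 to -0.62, -0.67 to -0.53, -0.58 to -0.33 and -0.34 to -0.14. The cause of these changes was not tested. With piRNA cluster reads as library size and with names as listed the directions and calls held for all 5.

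Of the member sequences, 14 were higher under DESeq2's size factors and 39 under TMM factors, which moved the median of all sequences from 0.70 to 0.05 and 0.02, against 269 before. With at least 20 RPM 87 were lower and 162 higher, with at least 5 RPM 305 were lower, with single-locus sequences 95 were lower and 9 higher, and without 1-base variants 8 were lower. With at least 10 reads in all 55 were lower and by edgeR 0 higher (679 at an unadjusted p under 0.05), and with microRNA reads as library size 719 were higher and by edgeR 0 lower (0 at an unadjusted p under 0.05), while DESeq2 with its own size factors called 195 lower. Leaving out 1 library gave 147 to 167 lower and 67 to 267 higher.

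The replicate numbers are shared by both groups, but the labels name no shared pool, and the deviations of same-numbered libraries had a correlation of 0.0844 over 11025 cluster sequences and -0.04 over the tested members. With the replicate number as a block the log2 changes were -1.26, -0.67, -0.60, -0.45 and -0.24, and 162 members were lower and 245 higher.

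Under microRNA reads as library size, the named falls turned positive: 2.13, 1.98 and 2.06 for chromosome 24, 3.30, 3.43 and 3.86 for chromosome 2, 1.29 and 0.76 for the variants of chromosome 19, 3.78, 2.11 and 3.35 for chromosome 16, and 4.32, 1.68 and 4.39 for chromosome 4. The named rises of chromosomes 24, 16 and 4 turned negative under DESeq2's size factors (-0.37, -0.0175 and -0.37) and TMM factors (-0.39, -0.041 and -0.39).

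The member share minus that of other clusters, in percentage points, moved with each distinct sequence counted once for first base T (3), base 10 A (1.75, from -34.3), last base T (3.13), 26 nt (-2.96, from 21.2), 18 to 22 nt (14.2, from -2.95), 28 to 36 nt (-6.05), 1-base variants (11.1) and another first base with A at base 10 (-1.53). With single-locus members it was 4.30 for first base T, 8.11 for last base T, -10.5 for 18 to 22 nt, -6.32 for 28 to 36 nt and 38.5 for 1-base variants. With members named without a note it was 8.53 for first base T, -24.0 for last base T (from 17.4), -1.27 for 26 nt, -1.10 for 18 to 22 nt, -3.21 for 28 to 36 nt and 12.4 for 1-base variants. The 10 largest groups carried 78.3% of the fall, the 5 largest 70.8%, the 20 largest 87.2%, and whole sequences in place of groups 56.1%.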
